A study of Caenorhabditis elegans with 40 samples.

Results

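Polyadenylated RNA of whole Caenorhabditis elegans carrying the octr-1(ok371) allele was compared between old adults kept at 25 °C and collected on day 9 of adulthood, and young adults kept at 20 °C. Each group had 5 libraries, so 10 of the 40 libraries of the series were used for this comparison. All animals, mutant or wild type, fed on E. coli OP50, and every library was made from whole animals with a stranded kit for polyadenylated RNA. 3 further groups of 5 libraries served as context. They were old octr-1 mutants on day 14 at 20 °C, wild-type animals on day 9 at 25 °C and young wild-type adults at 20 °C. Old and young mutants differ in age and in temperature at once, so the effects of age and temperature cannot be told apart between them. ok371 is a single allele. Whether the replicates were grown as separate cultures is not in the labels. The p-values therefore rest on the spread among the libraries of a group, which may be technical.

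OCTR-1 is a G protein-coupled receptor for octopamine, the invertebrate counterpart of noradrenaline, and acts in sensory neurons that are known to restrain innate immune and stress gene expression in other tissues. Adult hermaphrodites pass from a fertile period, in which the intestine makes yolk for the oocytes and the epidermis maintains the cuticle, to a period after reproduction in which yolk synthesis, cuticle synthesis and protein turnover change. Temperature sets the pace of this course, since worms live shorter at higher temperature.

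The old 25 °C mutants had 29 to 32.5 M reads per library over 22974 to 23163 features with a read, and the young mutants 31.2 to 41.0 M reads over 17832 to 18406 features. The 10 genes with most reads took 3.39% to 3.55% of the reads in old 25 °C mutants and 9.88% to 10.5% in young ones. Levels are given as CPM, counts per M reads, after trimmed mean of M-values (TMM) scaling, and differences as log2 fold changes of old 25 °C over young mutants with their standard error. Under scaling by library size alone, the median of all log2 fold changes was 0.84 and not 0.08, a shift of 0.75 that applies to every gene, so genes with a fall of less than that size have the opposite sign under that scaling. In the deposited table that sets old mutants at 25 °C beside old mutants at 20 °C, 10 columns are identical to libraries that 2 other tables each assign to the other temperature. The names of those other tables are used here, and directions that turn round under the names of that 1 table are given beside the result.

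Of 15861 genes with at least 10 reads in at least 5 libraries, 13798 (87%) were called at an adjusted p under 0.05 with edgeR's quasi-likelihood test. Among them 7338 (46.3%) were higher and 6460 (40.7%) lower in old 25 °C mutants, so 53.2% of the calls were rises, against 82.1% under scaling by library size alone (91.6% called, 11929 higher and 2606 lower). At least 2-fold changes were called for 4392 genes upward (27.7%) and 2354 genes downward (14.8%), against 44.4% and 6.36% of genes under that scaling. The upward share depended on level. It was 50.7% of genes with a mean under 2 log2 CPM, 24.1% of those from 2 to under 5, and 3.44% of those from 5 upward. For 12328 genes (77.7%) the 5 old libraries did not overlap the 5 young ones. 1678 genes passed the filter through the old 25 °C libraries only and 70 through the young libraries only. Every gene described below as higher or lower had an edgeR adjusted p of at most 0.0215. Where a list's median is printed below for TMM scaling only, it had the same sign under both scalings. The counts of every list are to be read beside the 46.3% of all genes called higher and the 40.7% called lower. Because whole animals were sequenced, fewer cells of a type and less RNA per cell cannot be told apart.

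**Figure D1:**
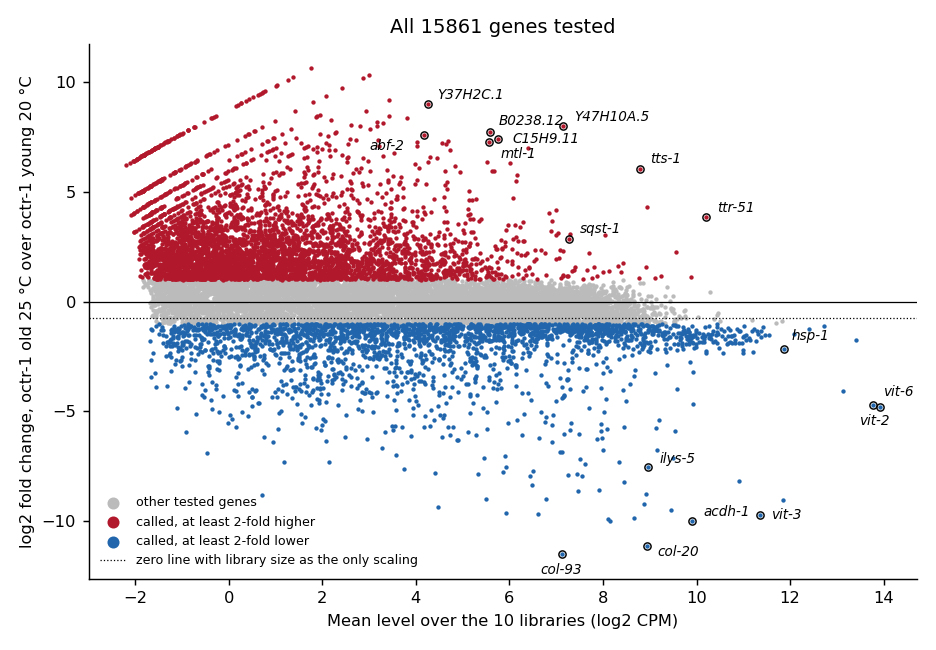
Each point is 1 of the 15861 genes tested, by its mean level over the 10 libraries (log2 CPM, x axis) and its log2 fold change in old 25 °C over young octr-1 mutants (y axis). Genes called at least 2-fold higher (4392, red) lie mostly at low levels, while genes called at least 2-fold lower (2354, blue) extend to the yolk genes vit-2 and vit-6 at the right. The dotted line marks 0 under scaling by library size alone.

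octr-1 itself was low in every mutant library. Its levels were 0.859, 1.05, 0.776, 1.001 and 0.858 CPM in old 25 °C mutants, against 0.411, 0.748, 0.397, 0.479 and 0.421 CPM in young mutants. All 5 old libraries lay above all 5 young ones, and octr-1 was 1.85-fold higher in the old mutants (log2 fold change 0.89 ± 0.21, edgeR adjusted p = 4.00e-04). Whether those reads lie inside or outside the deletion cannot be seen in a count per gene. In the 4 groups scaled together it had 0.869 ± 0.109 CPM in old and 0.469 ± 0.140 CPM in young mutants, against 5.76 ± 0.192 CPM in old and 1.64 ± 0.216 CPM in young wild-type animals.

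Octopamine is made from tyrosine through tyramine, and both act through receptors of related families. tbh-1, which encodes the enzyme that turns tyramine into octopamine, had 154.5, 155, 161, 154.1 and 147 CPM in old 25 °C mutants, against 328, 377, 368, 357 and 329 CPM in young mutants. Its groups did not overlap, and it was 2.28-fold lower in the old mutants. tdc-1, encoding the tyrosine decarboxylase that makes tyramine, was lower with a log2 fold change of -0.48, but higher (0.28) under scaling by library size alone. Of the receptors, the tyramine-gated chloride channel gene lgc-55 (2.13), the tyramine receptor genes ser-2 (1.54), tyra-3 (0.86) and tyra-2 (0.42) and the octopamine receptor gene ser-3 (0.30) were higher. The octopamine receptor gene ser-6 was lower (-0.49, 0.26 under scaling by library size alone), and its call was lost without any 1 of old replicates 2 to 5 (edgeR adjusted p = 0.0542 to 0.112). The call of tyra-2 was lost without young replicate 1 (edgeR adjusted p = 0.0634). cat-1, the vesicular monoamine transporter, had a log2 fold change of 0.21 and was not called (edgeR adjusted p = 0.334), but was called under scaling by library size alone (0.96, edgeR adjusted p = 6.28e-05) and under the other library names (0.96, edgeR adjusted p = 4.14e-05). ser-3 was not called under the other library names (0.02, edgeR adjusted p = 0.866).

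Among genes whose groups did not overlap and whose mean level reached 4 log2 CPM, the largest rises were in Y37H2C.1 (8.98), Y47H10A.5 (7.96), B0238.12 (7.72), abf-2 (7.57), C15H9.11 (7.40), ilys-2 (7.28), mtl-1 (7.26), Y46H3A.5 (7.25), T28B4.4 (7.19) and ilys-3 (7.15), as log2 fold changes. 3 of the 10 encode antimicrobial proteins, namely the antibacterial factor abf-2 and the invertebrate-type lysozymes ilys-2 and ilys-3, and mtl-1 encodes a metallothionein. The deepest falls were in col-93 (-11.50), col-20 (-11.10), acdh-1 (-9.9996), col-80 (-9.99), folt-2 (-9.88), col-19 (-9.83), vit-3 (-9.71), col-179 (-9.66), col-139 (-9.63) and col-124 (-9.46). 7 of these 10 are cuticle collagens. B0238.12 had 90.7, 89.9, 92.3, 94.2 and 89.6 CPM in old 25 °C mutants, against 0.288, 0.630, 0.358, 0.447 and 0.421 CPM in young mutants. Y37H2C.1 had 35.3, 34.4, 36.4, 33.9 and 37.8 CPM in old 25 °C mutants, against 0.0823, 0.0393, 0.0795, 0 and 0.140 CPM in young mutants. Both genes were picked from those without overlap between groups, and the young values of Y37H2C.1 rest on 9 reads over the 5 libraries.

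**Figure D2:**
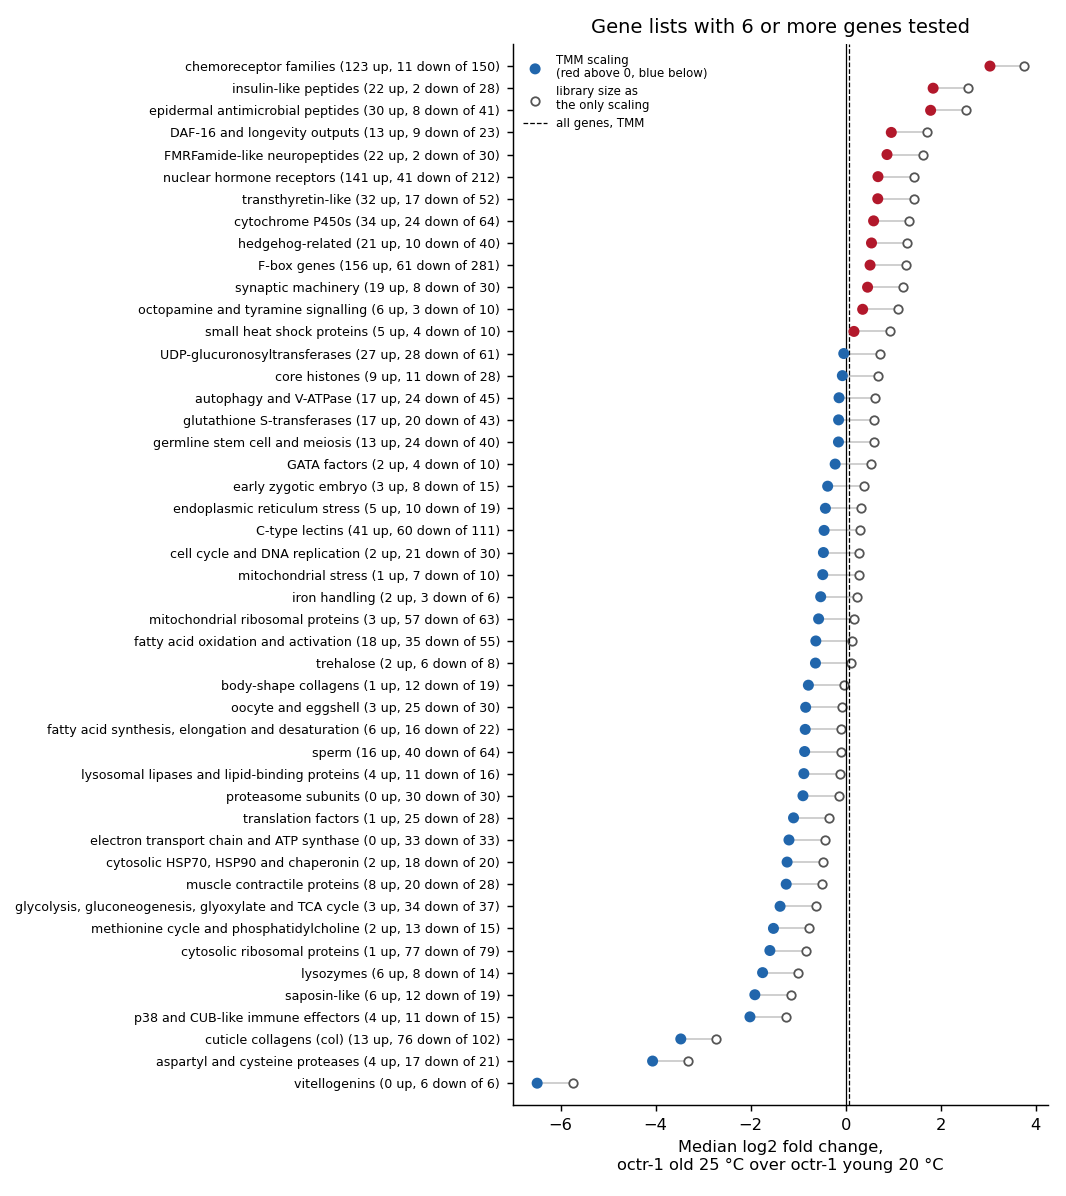
Each row is a gene list, with the numbers of genes called higher (up) and lower (down) out of those tested, and its median log2 fold change in old 25 °C over young octr-1 mutants (x axis). Filled points use TMM scaling, open points library size as the only scaling, and the dashed line is the median of all genes tested (0.08). The vitellogenins are lowest at -6.49 and the chemoreceptor families highest at 3.04. Of the 150 chemoreceptor genes tested, 102 passed the filter through the old libraries alone or the young libraries alone. The filter favoured rises among genes that passed through the old libraries alone, so the chemoreceptor median is a description only.

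Yolk genes were far lower in the old mutants. Vitellogenins are yolk lipoproteins made in the intestine and taken up by oocytes. Of the 6 vitellogenin genes tested, 0 were higher and 6 lower, with a median log2 fold change of -6.49, beside 40.7% of all genes called lower and a median of 0.08. Their summed level was 2819 to 3345 CPM in old 25 °C mutants and 85690 to 95777 CPM in young mutants. vit-2 had 998, 1078, 992, 939.9 and 1111 CPM in old 25 °C mutants, against 26202, 27817, 25944, 28582 and 26840 CPM in young mutants. vit-6 had 1073, 1135, 1000, 974 and 1121 CPM in old 25 °C mutants, against 29448, 30164, 27187, 32120 and 30001 CPM in young mutants. Both sets of old values lay more than an order of magnitude below the young ones, and vit-2 was 26.4-fold lower (log2 fold change -4.73 ± 0.05, edgeR adjusted p = 4.88e-27). vit-3 had 7.66, 7.08, 5.64, 4.74 and 6.03 CPM in old 25 °C mutants, against 5017, 5408, 5209, 5489.9 and 5060.1 CPM in young mutants, and was 837-fold lower. vit-3, vit-4 and vit-5 are near-identical copies, so how reads were divided among them is uncertain. vit-1, vit-4 and vit-5 had log2 fold changes of -9.01, -8.18 and -4.08.

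Most other intestinal markers fell as well. Of 10 intestinal markers, 0 were higher and 9 lower, and their summed level was 272 to 302 CPM in old 25 °C mutants and 3549 to 3892 CPM in young mutants. The exception was elt-7, a gut GATA factor gene (-0.17, edgeR adjusted p = 0.0573), which was called without young replicate 3 (-0.23, edgeR adjusted p = 0.0136). asp-1, an intestinal aspartyl protease, had 70.3, 81.2, 68.4, 75.9 and 72.5 CPM in old 25 °C mutants, against 1754, 1944, 1779, 1983 and 1858 CPM in young mutants. pept-1, the gut peptide transporter, had 21.8, 25.6, 22.5, 23.2 and 24 CPM in old 25 °C mutants, against 275, 295, 284, 284 and 274 CPM in young mutants. Neither gene overlapped between groups. The brush-border actin act-5, the intestinal proton pump subunit vha-6 and the acid phosphatase pho-1 fell by 3.38, 3.94 and 3.56 on the log2 scale. The gut esterase ges-1 fell by 2.80, the gut intermediate filament ifb-2 by 2.01 and the gut GATA factor elt-2 by 1.25.

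Lysosomal and digestive proteases were mostly lower too. Of 21 aspartyl and cysteine proteases, 4 were higher and 17 lower, with a median of -4.06. cpr-5, a cathepsin B-like protease, had 4.84, 4.63, 4.99, 4.19 and 5.06 CPM in old 25 °C mutants, against 465, 564, 513, 524 and 493 CPM in young mutants, without overlap. The aspartyl protease asp-2 (-6.22) and the cathepsin B-like cpr-6 (-3.98) were also lower. The 4 that rose were asp-17 (1.102), cpr-3 (1.23), cpz-2 (0.13) and cpr-2. cpr-2 had 1 read over the 5 young libraries and 1192 over the 5 old ones, so no fold is given. cpz-2 was lower under the other library names.

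Cuticle collagens, the structural proteins of the outer layer that the epidermis secretes, made up most of the deepest falls. Of 102 col genes tested out of 157 in the tables, 13 were higher and 76 lower, and 70 of the falls were at least 2-fold. The median was -3.47, and the summed level was 172 to 204 CPM in old 25 °C mutants and 12637 to 16063 CPM in young mutants. col-20 had 0.620, 0.490, 0.466, 0.290 and 0.334 CPM in old 25 °C mutants, against 920.5, 916, 893, 1016 and 1153 CPM in young mutants. col-19, an adult-specific collagen, had 1.097, 1.15, 0.828, 0.948 and 0.477 CPM in old 25 °C mutants, against 796, 736, 714, 897 and 955 CPM in young mutants. col-124 had 2.27, 2.11, 1.84, 2.002 and 1.65 CPM in old 25 °C mutants, against 1380.3, 1229.7, 1210.4, 1488 and 1670.4 CPM in young mutants. Old libraries held these collagens at a few CPM or less. They are among the deepest falls above, which were picked from genes without overlap between groups. 24 of the tested col genes passed the filter through 1 group only. Of 19 body-shape collagens, named for the mutants that change the body form, 1 was higher and 12 lower (median -0.78, and 5 higher and 6 lower, median -0.03, under scaling by library size alone). sqt-3 (-1.97), dpy-4 (-2.45) and bli-1 (-3.19) fell, and dpy-9 (0.69) rose. The call of sqt-3 was lost under the other library names (edgeR adjusted p = 0.969).

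Muscle genes moved both ways. Of 28 contractile proteins, 8 were higher and 20 lower (median -1.25, and 9 higher and 17 lower, median -0.49, under scaling by library size alone). unc-54, the major myosin heavy chain of the body wall, had 56.3, 58.3, 47, 47.7 and 56.5 CPM in old 25 °C mutants, against 723, 620.2, 623, 739 and 885 CPM in young mutants. The old values lay below all young ones, and unc-54 was 13.5-fold lower. The troponin C gene pat-10 (-3.25), the troponin I gene unc-27 (-3.53), paramyosin unc-15 (-2.06) and the myosin heavy chain myo-3 (-1.22) were lower too. All 8 that rose were either pharyngeal genes or genes for giant sarcomere proteins. The first kind held the pharyngeal myosins myo-1 (1.04) and myo-2 (1.23) and the pharyngeal troponins tnc-2 (1.83), tni-4 (0.97) and tnt-4 (1.88). The second held twitchin unc-22 (0.25), obscurin-like unc-89 (0.85) and titin-like ttn-1 (2.40). myo-2 had 27, 27.4, 24.4, 24.9 and 30.3 CPM in old 25 °C mutants, against 7.90, 11.13, 10.6, 13.1 and 13.9 CPM in young mutants, without overlap. All 6 pharynx markers were higher, including the transcription factor genes pha-4 (0.88) and ceh-22 (1.87), with sums of 109 to 121.8 CPM in old 25 °C mutants and 45.1 to 59.3 CPM in young mutants. Under the other library names the pharynx markers counted 1 higher and 3 lower of 6, median -0.11, and myo-1, myo-2, tni-4, tnt-4 and unc-22 were below 0. The calls of pha-4 and ceh-22 were lost there (edgeR adjusted p = 0.71 and 0.753).

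Synaptic and neuropeptide genes were mostly higher. Of 30 genes of the synaptic machinery, 19 were higher and 8 lower (median 0.46). Over all genes tested, 46.3% were called higher and 40.7% lower (median 0.08). unc-13, which primes synaptic vesicles, had 36.1, 35.8, 34.4, 33.6 and 35.5 CPM in old 25 °C mutants, against 11.3, 9.72, 11.84, 10.5 and 10.41 CPM in young mutants. Every old value exceeded every young one. The active zone gene unc-10 (1.73), syntaxin unc-64 (1.15) and the acetylcholinesterase ace-1 (1.27) were higher, whereas the vesicular acetylcholine transporter unc-17 (-2.01) and the GABA-synthesizing enzyme unc-25 (-0.96) were lower. Of 30 FMRFamide-like neuropeptide genes, 22 were higher and 2 lower (median 0.87). flp-25 had 8.68, 8.04, 9.70, 8.40 and 7.58 CPM in old 25 °C mutants, against 0.576, 0.826, 1.27, 0.958 and 0.701 CPM in young mutants. flp-5 (2.55) and flp-18 (1.92) also rose, and the 2 that fell were flp-28 (-0.79) and flp-7 (-0.57, 0.19 under scaling by library size alone). The calls of unc-25 and flp-28 were lost under scaling by library size alone (edgeR adjusted p = 0.14 and 0.695), and that of unc-25 also under the other library names (edgeR adjusted p = 0.135). Of the 7 neuron markers, 4 were higher and 3 lower (median 0.19, and 7 higher and 0 lower, median 0.94, under scaling by library size alone). Their summed level was 192 to 224 CPM in old 25 °C mutants and 184 to 201 CPM in young mutants. Whether the level of these markers moved with the lists above was not tested. Rises of at least 2-fold counted 11 of 30 synaptic and 14 of 30 FMRFamide-like genes. Over all genes such rises made up 50.7% of those under 2 log2 CPM and 24.1% of those from 2 to under 5. Whether low level accounts for the counts of these lists was not tested.

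Insulin-like peptides and chemoreceptors, both large families of neuronal genes, had low levels, and many of their tested members passed the filter through 1 group only. Of 28 insulin-like peptide genes tested of 40, 22 were higher and 2 lower, with a median of 1.84, and 11 passed the filter through 1 group only. ins-23 had 10.1, 9.43, 9.83, 8.88 and 9.87 CPM in old 25 °C mutants, against 0.411, 0.511, 0.675, 0.447 and 0.491 CPM in young mutants. ins-22 was also higher (6.11), with 12 reads over the 5 young libraries, while ins-12 (-3.65) and ins-34 (-0.29, 0.46 under scaling by library size alone) fell. ins-34 was above 0 under the other library names (0.21). The call of ins-34 was lost without young replicate 4 and without each of old replicates 1, 2, 3 and 5 (edgeR adjusted p = 0.0522 to 0.203). Of 150 chemoreceptor genes that passed the filter of 1252 in the tables, 123 were higher and 11 lower, and 102 passed through 1 group only. Genes that passed through the old libraries only had at least 10 reads in every old library and fewer in every young one. The filter thus favoured rises among them, so the counts of both families are descriptions. srh-237 (-6.34) and sri-40 (-4.93) were among the falls.

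Antimicrobial genes moved in both directions by large amounts. Lysozymes degrade bacterial cell walls. Of 14, 6 were higher and 8 lower, all of them at least 2-fold. ilys-3 had 46.1, 47.7, 46, 47 and 47.1 CPM in old 25 °C mutants, against 0.206, 0.354, 0.159, 0.447 and 0.421 CPM in young mutants. ilys-2 had 45.6, 46, 51.1, 50.05 and 47.5 CPM in old 25 °C mutants, against 0.247, 0.669, 0.278, 0.319 and 0.0351 CPM in young mutants. Both invertebrate-type lysozymes, picked above from genes without overlap, were high in every old library and under 1 CPM in every young one. lys-3 (5.45), lys-7 (1.57), ilys-4 (1.21) and ilys-6 (1.71) rose too. In the opposite direction, lys-4 had 1.67, 1.59, 1.603, 1.37 and 1.48 CPM in old 25 °C mutants, against 332, 447, 389, 359.8 and 362 CPM in young mutants. ilys-5 had 6.37, 6.44, 5.17, 5.16 and 4.197 CPM in old 25 °C mutants, against 1007, 1004, 939, 1071 and 991 CPM in young mutants, and was 183-fold lower. ilys-4 was at -0.017 under the other library names.

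Saposin-like proteins are pore-forming peptides of the intestine and other tissues. Of 19 genes, 6 were higher and 12 lower (median -1.91). spp-17 had 1.5502, 1.25, 1.32, 1.24 and 1.22 CPM in old 25 °C mutants, against 308, 324, 287, 298 and 331 CPM in young mutants. spp-3 (-6.08) and spp-5 (-3.90) also fell, and spp-20 rose (6.91), with 8 reads over the 5 young libraries. C-type lectins, a family with many infection-responsive members, counted 41 higher and 60 lower of 111 (median -0.45, and 53 higher and 42 lower, median 0.29, under scaling by library size alone). clec-50 (-5.10) and clec-63 (-3.05) were among the falls. 18 of the lectins tested and 4 of the saposin-like genes passed the filter through 1 group only.

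The list of epidermal antimicrobial peptides held genes of several families, and whole-animal RNA does not show the tissue they came from. Of 41 genes of the abf, cnc, fipr and nlp families, 30 were higher and 8 lower (median 1.79), and 11 passed through 1 group only. The filter favoured rises among genes that passed through the old libraries only, so these counts are descriptions. abf-2 had 33, 32.5, 35.9, 30.9 and 33.2 CPM in old 25 °C mutants, against 0.206, 0.0787, 0.278, 0.128 and 0.175 CPM in young mutants. The young libraries held 23 reads of abf-2 in all, and it was picked above from genes without overlap between groups. cnc-2 (3.91) and abf-5 (4.44) rose, while nlp-24 (-4.54) and fipr-13 (-5.35) fell.

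The list of intestinal p38 and CUB-like immune effectors also held infection response genes such as irg-1, and most of its genes were lower. Whether each member depends on the p38 pathway was not tested. Of 15 genes, 4 were higher and 11 lower (median -2.01). dod-24, a CUB-like gene, had 0.811, 0.735, 0.879, 1.001 and 0.930 CPM in old 25 °C mutants, against 17.3, 14.2, 13.4, 14.5 and 16.6 CPM in young mutants. The thaumatin-like thn-2 was lower (-2.01). The 4 that rose were irg-1 (5.43), irg-2 (4.80), T24B8.5 (2.59) and F55G11.4 (0.42). irg-1, an infection response gene, had 19.6, 18.1, 18.8, 17.8 and 19.3 CPM in old 25 °C mutants, against 0.411, 0.433, 0.517, 0.415 and 0.386 CPM in young mutants, with no overlap. This list turned round under the other library names, with 11 higher and 3 lower of 17, median 1.554, as did dod-24 and thn-2.

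**Figure D3:**
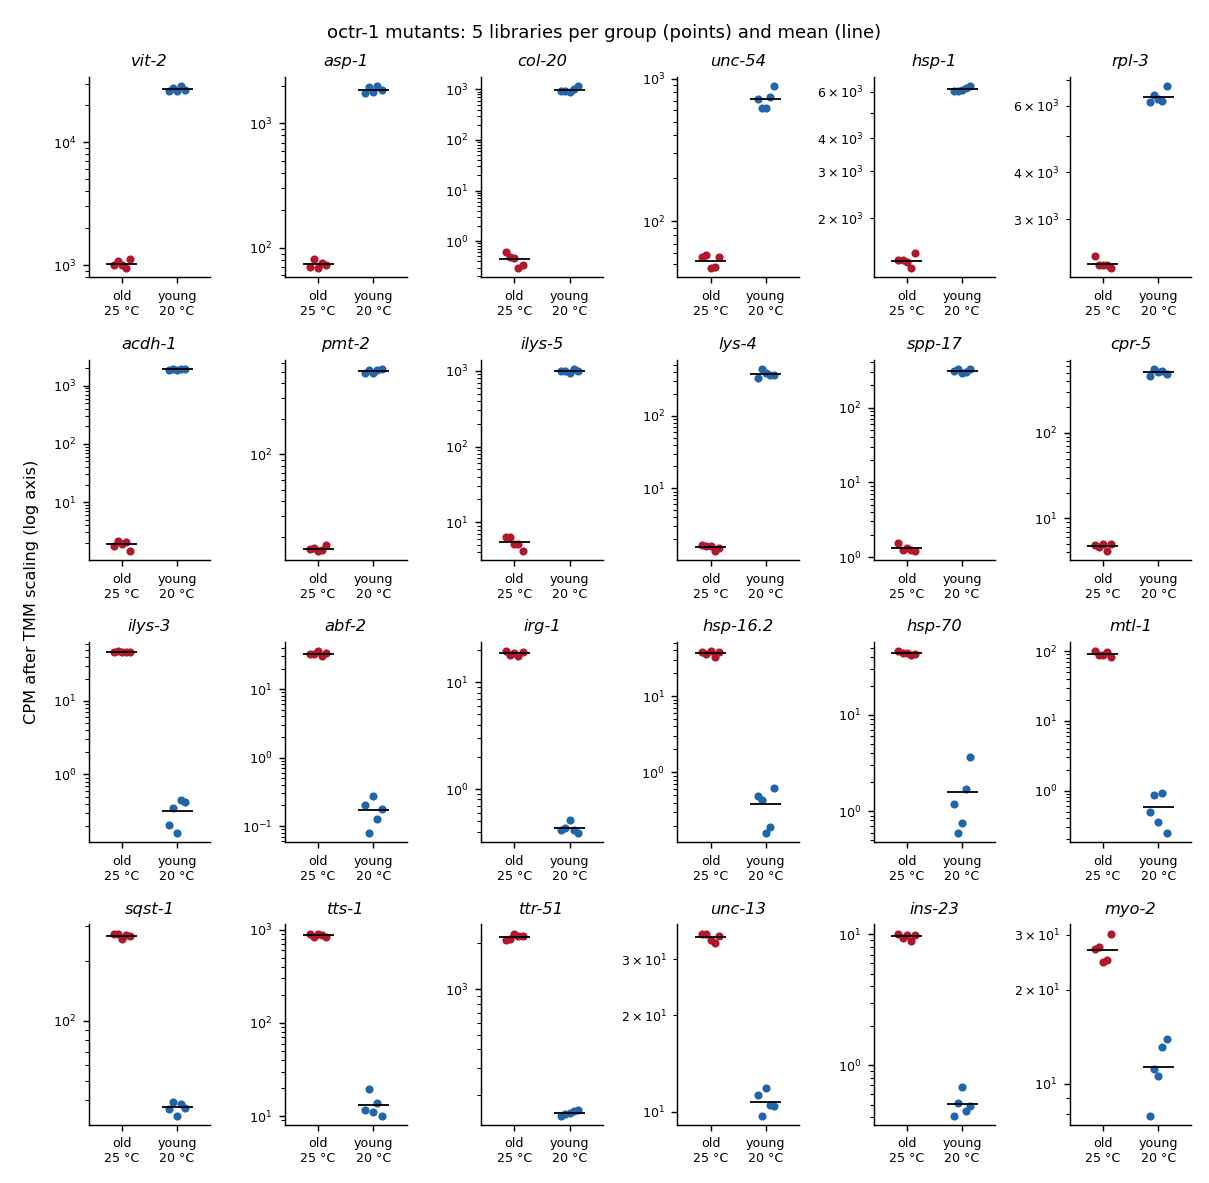
Levels of 24 genes in the 5 old 25 °C libraries (red) and the 5 young 20 °C libraries (blue) of octr-1 mutants, in CPM on log axes, with the mean as a line. The upper 12 panels are genes lower in the old mutants, such as vit-2 and ilys-5, and the lower 12 are genes higher there, such as ilys-3 and abf-2. In every panel all red points lie on 1 side of all blue points, as for 77.7% of all genes tested. Some of these genes were picked for not overlapping.

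Chaperone genes moved both ways. Small heat shock proteins bind unfolded proteins. Of 10, 5 were higher and 4 lower (median 0.18, and 7 higher and 1 lower, median 0.93, under scaling by library size alone). The TMM counts lie near the background of 46.3% of all genes called higher and 40.7% lower. hsp-16.2 had 37.5, 35.7, 38.9, 32.4 and 38.1 CPM in old 25 °C mutants, against 0.494, 0.433, 0.159, 0.192 and 0.631 CPM in young mutants. The old level was 95.6-fold higher (log2 fold change 6.58 ± 0.14, edgeR adjusted p = 2.22e-20). hsp-16.41 (5.96), hsp-12.6 (2.60), hsp-17 (0.60) and hsp-12.2 (0.56) rose. hsp-25 fell (-1.53), and sip-1 (-0.73), hsp-12.3 (-0.74) and hsp-43 (-0.21) fell under TMM but lay above 0 under scaling by library size alone. Under the other library names the small heat shock list counted 4 higher and 6 lower of 10, median -0.88, with hsp-17 and hsp-12.2 below 0 and sip-1 above 0. The hsp-16 genes are close copies of each other, so single values are uncertain.

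Of 20 cytosolic HSP70, HSP90 and chaperonin genes, 2 were higher and 18 lower (median -1.23, and 7 higher and 13 lower, median -0.48, under scaling by library size alone). The 2 that rose were the heat-inducible hsp-70 and the co-chaperone gene unc-23 (0.41), whose call was lost under the other library names (edgeR adjusted p = 0.805). hsp-70 had 46.1, 44.3, 43.9, 42 and 43.4 CPM in old 25 °C mutants, against 1.19, 0.590, 0.755, 1.69 and 3.68 CPM in young mutants. hsp-1, the constitutive HSP70, had 1387, 1386, 1370.1, 1294 and 1479.7 CPM in old 25 °C mutants, against 6013, 6018, 6097, 6208 and 6287 CPM in young mutants. Both genes separated the groups, in opposite directions. hsp-110 (-2.15), the HSP90 gene daf-21 (-1.26) and the chaperonin subunit cct-2 (-1.90) were lower. In the endoplasmic reticulum, 5 were higher and 10 lower of 19 stress genes (median -0.42, and 13 higher and 5 lower, median 0.33, under scaling by library size alone). The BiP genes hsp-3 (-1.49) and hsp-4 (-1.23) fell, and the stress sensors and transcription factors xbp-1 (0.49) and atf-6 (0.67) rose. The mitochondrial chaperones hsp-6 (-1.62) and hsp-60 (-3.23) were lower.

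Genes of protein synthesis fell together. Of 79 cytosolic ribosomal protein genes, 1 was higher and 77 lower, and 73 of the falls were at least 2-fold (median -1.59, and 3 higher and 75 lower, median -0.84, under scaling by library size alone). rpl-3 had 2401, 2278, 2273, 2280.2 and 2228 CPM in old 25 °C mutants, against 6135, 6381, 6249, 6153 and 6749 CPM in young mutants. Old values lay below all young ones, and rpl-3 was 2.76-fold lower. rpl-26 was lower by more (-2.14), and the 1 that rose was rpl-24.2 (0.18). Of 28 translation factors, 1 was higher and 25 lower (median -1.096, and 4 higher and 23 lower, median -0.34, under scaling by library size alone). The elongation factor eef-1A.1 fell (-1.75) and its close copy eef-1A.2 rose (0.35). Mitochondrial ribosomal proteins counted 3 higher and 57 lower of 63 (median -0.57, but 36 higher and 19 lower, median 0.19, under scaling by library size alone). mrps-25 was lower (-1.77).

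Genes of protein breakdown were mixed. All 30 proteasome subunits were lower (median -0.90, and 3 higher and 20 lower, median -0.14, under scaling by library size alone), among them rpn-1 (-1.49) and pbs-5 (-1.90). Of 45 autophagy and V-ATPase genes, 17 were higher and 24 lower (median -0.14, but 28 higher and 14 lower, median 0.62, under scaling by library size alone, and 22 higher and 21 lower of 45, median 0.06, under the other library names). sqst-1, the selective autophagy receptor p62, had 275, 274, 259, 269 and 266 CPM in old 25 °C mutants, against 36.3, 39, 33.5, 38.5 and 36.7 CPM in young mutants. It was 7.29-fold higher, without overlap. The Atg8 homolog lgg-1 was higher (0.83) and the proton pump subunit vha-13 lower (-2.17).

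Most genes of energy metabolism were lower. All 33 electron transport chain and ATP synthase genes were lower (median -1.19, and 4 higher and 26 lower, median -0.44, under scaling by library size alone). atp-2, the ATP synthase beta subunit, had 644, 694, 668, 664 and 708 CPM in old 25 °C mutants, against 3299, 3559.5, 3394, 3421 and 3436 CPM in young mutants. The complex I subunit nuo-5 (-1.91) and the complex III subunit ucr-1 (-1.63) were lower. Of 37 genes of glycolysis, gluconeogenesis, the glyoxylate and the TCA cycle, 3 were higher and 34 lower (median -1.38, and 5 higher and 31 lower, median -0.62, under scaling by library size alone). Malate dehydrogenase mdh-2 (-2.296) and aldolase aldo-2 (-2.13) fell. The 3 that rose were the glyoxylate cycle enzyme icl-1 (1.59), aldo-1 (0.40) and pfk-1.2 (1.73).

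Some metabolic genes fell much further. acdh-1, whose product oxidizes an acyl-CoA in the propionate shunt, had 1.76, 2.18, 1.91, 2.08 and 1.45 CPM in old 25 °C mutants, against 1903, 1948, 1863, 1967 and 1928 CPM in young mutants. The old level was 1024-fold lower, and all 3 tested genes of the shunt were lower. sams-1, which makes S-adenosylmethionine, had 12.62, 13.8, 12.65, 12.33 and 13.2 CPM in old 25 °C mutants, against 265, 255, 256, 279.7 and 293 CPM in young mutants. pmt-2, a methyltransferase of phosphatidylcholine synthesis, had 15.6, 15.9, 15.2, 15.3 and 17 CPM in old 25 °C mutants, against 489, 519, 491, 524 and 534 CPM in young mutants. Neither gene overlapped between groups. Of 15 methionine cycle and phosphatidylcholine genes, 2 were higher and 13 lower (median -1.52, and 5 higher and 10 lower, median -0.76, under scaling by library size alone). ahcy-1 (-1.92) and cth-2 (-2.37) fell, and sams-5 (0.32) and cbs-2 (1.23) rose, where sams-5 was below 0 under the other library names.

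Among 22 genes of fatty acid synthesis, elongation and desaturation, 6 were higher and 16 lower (median -0.85, and 8 higher and 12 lower, median -0.09, under scaling by library size alone). The branched-chain elongases elo-5 (-3.09) and elo-6 (-3.15) and the acyl-CoA synthetase acs-1 (-3.46) fell, while the palmitoyl-CoA desaturase fat-5 rose (1.98). Lysosomal lipases and lipid-binding proteins counted 4 higher and 11 lower of 16 (median -0.88, and 6 higher and 7 lower, median -0.12, under scaling by library size alone). lbp-6 fell (-2.41), and lbp-2 (0.97), lipl-4 (0.95), lipl-6 (1.42) and lipl-7 (0.51) rose, with lbp-2 below 0 under the other library names. Fatty acid oxidation and activation genes counted 18 higher and 35 lower of 55 (median -0.63, but 27 higher and 24 lower, median 0.13, under scaling by library size alone). In trehalose metabolism, where 2 were higher and 6 lower of 8 (median -0.63, but 4 higher and 3 lower, median 0.12, under scaling by library size alone), the trehalose synthase tps-1 rose (1.48).

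Genes linked to the DAF-16 transcription factor and longevity split. Of 23, 13 were higher and 9 lower (median 0.96), and 3 passed the filter through 1 group only. Over all genes tested, 46.3% were called higher and 40.7% lower, so these counts lie near the background. mtl-1 had 99.8, 86.8, 87.8, 96.8 and 82.2 CPM in old 25 °C mutants, against 0.494, 0.866, 0.358, 0.926 and 0.245 CPM in young mutants. tts-1, a long noncoding RNA that is abundant in long-lived mutants, had 888, 825, 907, 874 and 835 CPM in old 25 °C mutants, against 11.6, 19.7, 11.13, 13.7 and 10.1 CPM in young mutants. tts-1 was higher in every old library than in any young one, while mtl-1 was picked above from genes without overlap. The extracellular superoxide dismutase sod-4 (2.71), the ferritin ftn-1 (5.85) and the late embryogenesis abundant-like gene lea-1 (1.14) rose. The cytosolic sod-1 (-1.38), mitochondrial sod-3 (-0.89), the metallothionein mtl-2 (-1.75) and gpd-2 (-1.66) fell, and the call of sod-3 was lost under scaling by library size alone (edgeR adjusted p = 0.318).

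Detoxification families moved both ways, and are given beside 46.3% of all genes called higher and 40.7% called lower. Of 64 cytochrome P450 genes, 34 were higher and 24 lower (median 0.59), of 43 glutathione S-transferases 17 were higher and 20 lower (median -0.15, but 23 higher and 17 lower, median 0.61, under scaling by library size alone), and of 61 UDP-glucuronosyltransferases 27 were higher and 28 lower (median -0.04, but 38 higher and 17 lower, median 0.72, under scaling by library size alone). Under the other library names the UDP-glucuronosyltransferases counted 32 higher and 27 lower of 62, median 0.31. Of the tested genes, 8 cytochrome P450s, 7 glutathione S-transferases and 5 UDP-glucuronosyltransferases passed the filter through 1 group only. cyp-33C8 (3.52) and gst-24 (3.86) rose, whereas gst-26 (-5.69) and gst-27 (-6.30) fell. Iron handling counted 2 higher and 3 lower of 6 (median -0.52, but 3 higher and 3 lower, median 0.23, under scaling by library size alone).

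Families of regulators and secreted proteins are given beside 46.3% of all genes called higher and 40.7% called lower. Of 212 nuclear hormone receptors, a family of transcription factors expanded in nematodes, 141 were higher and 41 lower (median 0.68). nhr-11 (3.23) and nhr-154 (2.16) rose. nhr-114 had 4.79, 5.37, 5.04, 4.45 and 4.46 CPM in old 25 °C mutants, against 240.1, 221, 230.4, 253 and 255 CPM in young mutants, and was 49.7-fold lower. nhr-68, which acts upstream of acdh-1 in the response to propionate, was also lower (-4.13). Of 281 F-box genes, whose products select proteins for ubiquitination, 156 were higher and 61 lower (median 0.52), with fbxa-24 at 6.35 and fbxa-72 at -6.10. Transthyretin-like genes, a nematode family of secreted proteins, counted 32 higher and 17 lower of 52 (median 0.68). ttr-51 had 2104, 2129, 2323, 2226 and 2231 CPM in old 25 °C mutants, against 147, 149.8, 152, 157 and 159 CPM in young mutants. All old values exceeded all young ones, and ttr-45 (3.03) and ttr-2 (2.27) rose as well. Hedgehog-related genes, expressed largely in the epidermis, counted 21 higher and 10 lower of 40 (median 0.55), and GATA factors 2 higher and 4 lower of 10 (median -0.22, but 7 higher and 1 lower, median 0.53, under scaling by library size alone, and 5 higher and 3 lower of 10, median 0.07, under the other library names). Of the tested genes, 27 nuclear hormone receptors, 50 F-box genes and 11 hedgehog-related genes passed the filter through 1 group only. There the filter favoured 1 direction, so these counts too are descriptions.

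Genes of the germ line and gametes moved both ways. Of 30 oocyte and eggshell genes, 3 were higher and 25 lower (median -0.84, and 11 higher and 15 lower, median -0.08, under scaling by library size alone). cpg-2, a chondroitin proteoglycan of the eggshell, had 1693, 1790.5, 1577, 1729 and 1595 CPM in old 25 °C mutants, against 2825, 3195, 3012, 3079 and 2959.9 CPM in young mutants. Its groups did not overlap. The eggshell gene cbd-1 (-2.23) and the oocyte regulators oma-2 (-1.29) and lin-41 (-1.60) fell, and the permeability barrier genes perm-2 (0.25) and perm-4 (0.45) and the germline regulator puf-8 (0.30) rose. Of 40 germline stem cell and meiosis genes, 13 were higher and 24 lower (median -0.15, but 29 higher and 10 lower, median 0.61, under scaling by library size alone). gld-1 (-1.30), glh-1 (-1.09) and csr-1 (-1.40) were lower. syp-1, a synaptonemal complex protein, had 209, 196, 212, 204 and 216 CPM in old 25 °C mutants, against 100.1, 84.1, 90.7, 94.9 and 98.8 CPM in young mutants, without overlap.

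Of 64 sperm genes, 16 were higher and 40 lower (median -0.86, and 22 higher and 27 lower, median -0.11, under scaling by library size alone). All 26 tested msp genes, the major sperm proteins, were lower, with a median of -1.64, and -0.88 under scaling by library size alone. This split of the list was made after the values were seen, and members of the msp family have almost the same sequence, so none is given singly. ssp-35 (2.53), spe-15 (1.196) and spe-6 (1.24) rose, and spe-39 fell (-0.77), its call being lost under scaling by library size alone (edgeR adjusted p = 0.611). Cell cycle and DNA replication genes counted 2 higher and 21 lower of 30 (median -0.47, but 21 higher and 9 lower, median 0.29, under scaling by library size alone), with the replicative helicase subunits mcm-2 (-1.53) and mcm-7 (-1.32) among the falls. Core histones counted 9 higher and 11 lower of 28 (median -0.07, but 18 higher and 6 lower, median 0.69, under scaling by library size alone), and genes of the early zygotic embryo 3 higher and 8 lower of 15 (median -0.38, but 9 higher and 3 lower, median 0.38, under scaling by library size alone). Under the other library names both lists had positive medians, with 16 higher and 7 lower of 27, median 0.53, for histones, and 9 higher and 5 lower of 15, median 0.38, for embryonic genes.

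None of the 53 tissue markers was at 0 reads in a whole group. Summed levels were lower in old 25 °C mutants for the 7 hypodermis markers (132 to 139.9 CPM in old 25 °C mutants and 857 to 1097 CPM in young mutants, with a median log2 fold change of -0.71, but 0.04 under scaling by library size alone), the 6 body wall muscle markers (270.1 to 313 CPM in old 25 °C mutants and 1393 to 1882 CPM in young mutants) and the 8 germline markers (2188 to 2256 CPM in old 25 °C mutants and 4142 to 4341 CPM in young mutants). Most of the young hypodermis sum came from col-19, which was among the deepest falls above. Of the 7 hypodermis markers, 5 were lower and 2 not called, and 2 passed the filter through 1 group only. The members of the other 2 tissues did not all fall with their sums. Of the 6 body wall muscle markers, 2 were higher and 4 lower, and of the 8 germline markers, 3 were higher and 5 lower. Summed levels were higher in old 25 °C mutants for the 3 coelomocyte markers (11.5 to 12.4 CPM in old 25 °C mutants and 5.59 to 7.01 CPM in young mutants). The 6 somatic gonad markers overlapped, with 103.97 to 113 CPM in old 25 °C mutants and 107 to 112 CPM in young mutants. How far these levels account for the lists above was not tested.

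To ask whether the wild type changed alike, the change from young to old at 25 °C in octr-1 mutants was set against the same change in wild-type animals, as an interaction in 1 fit of the 20 libraries of both genotypes. The old and young mutant libraries are those already described, so these values are not independent of the ones above. Of 16287 genes tested, 7751 (47.6%) differed between genotypes at an edgeR adjusted p under 0.05. The log2 difference, mutant change minus wild-type change, was positive for 3106 (19.1%) and negative for 4645 (28.5%), and at least 2-fold for 608 upward (3.73%) and 1445 downward (8.87%). Positive differences made up 40.1% of the calls, but 54.8% under scaling by library size alone (4408 positive and 3632 negative). Genes given here as different had an edgeR adjusted p of at most 0.0138. The result depends on which library names are right. Under the names of the table that sets mutants at 25 °C beside mutants at 20 °C, 3640 genes had a positive and 4558 a negative difference of 16051 tested, a similar number, but the sizes for single genes changed much, so both values are given below.

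Yolk genes fell further in the mutants than in the wild type. All 6 vitellogenins had a negative difference (median -3.67), and under the other library names the list counted 0 higher and 5 lower of 6, median -0.58. vit-2 had 978 ± 68.1 CPM in old and 25861 ± 1043 CPM in young mutants, against 5038 ± 211 CPM in old and 24647 ± 1115 CPM in young wild-type animals. Its log2 difference was -2.43 ± 0.06, and -0.53 ± 0.06 under the other library names, with young levels close in both genotypes and the old level lower in mutants. vit-3 had 5.95 ± 1.12 CPM in old and 5002 ± 195 CPM in young mutants, against 291 ± 13.5 CPM in old and 5029.7 ± 190.1 CPM in young wild-type animals, a log2 difference of -5.60 ± 0.09, and -0.92 ± 0.06 under the other names. For vit-6 these were -2.63 ± 0.07 and -0.38 ± 0.07. The intestinal markers counted 0 higher and 10 lower of 10, median -0.68, and under the other names 2 higher and 8 lower of 10, median -0.47. asp-1 had a difference of -1.46 ± 0.10 that turned to 0.44 ± 0.11, and pept-1 one of -0.52 ± 0.05 that became -0.36 ± 0.05. octr-1 had a log2 difference of -0.91 ± 0.22, and -0.996 ± 0.23 under the other names.

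Collagens fell further in the mutants under both sets of names. The col genes counted 4 higher and 91 lower of 117, median -2.63, and under the other names 11 higher and 82 lower of 123, median -1.68. The body-shape collagens counted 0 higher and 18 lower of 19, median -2.45, and under the other names 2 higher and 15 lower of 19, median -1.28. Among called genes whose mean level over the 20 libraries reached 4 log2 CPM, 5 of the 6 deepest differences were in collagens, namely col-139 (-7.43 ± 0.66), col-93 (-7.24 ± 0.43), col-81 (-6.95 ± 0.61), col-20 (-6.65 ± 0.26) and col-129 (-6.19 ± 0.51). Under the other names they were -6.22 ± 0.60, -4.55 ± 0.32, -5.92 ± 0.55, -3.39 ± 0.19 and -5.40 ± 0.48. col-20 had 0.420 ± 0.127 CPM in old and 936 ± 102 CPM in young mutants, against 38.1 ± 1.58 CPM in old and 837 ± 156 CPM in young wild-type animals. The other one was acdh-1, with 1.79 ± 0.272 CPM in old and 1835 ± 38.6 CPM in young mutants, against 109 ± 7.01 CPM in old and 1622 ± 66.5 CPM in young wild-type animals. Its difference was -6.10 ± 0.08, and -0.66 ± 0.06 under the other names.

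Intestinal immune genes, saposins and proteases mostly had negative differences, in part only under the names used here. The p38 and CUB-like list counted 1 higher and 14 lower of 17, median -2.19, the saposin-like genes 0 higher and 15 lower of 19, median -2.08, the proteases 0 higher and 20 lower of 23, median -2.04 and the lysozymes 1 higher and 10 lower of 14, median -1.91. Under the other names the p38 and CUB-like list counted 6 higher and 7 lower of 17, median 0.16, the saposin-like genes 2 higher and 11 lower of 19, median -0.73, the proteases 9 higher and 11 lower of 23, median -0.30 and the lysozymes 1 higher and 5 lower of 13, median -0.44. ilys-5 had 5.22 ± 0.910 CPM in old and 957 ± 45 CPM in young mutants, against 123 ± 3.06 CPM in old and 1094 ± 50.9 CPM in young wild-type animals. Its difference was -4.36 ± 0.08, and it turned to 0.64 ± 0.05 under the other names. The lysosomal lipase gene lipl-1 had 0.753 ± 0.146 CPM in old and 1.52 ± 0.322 CPM in young mutants, against 16 ± 0.981 CPM in old and 0.495 ± 0.115 CPM in young wild-type animals. It fell in the mutants (-1.002) while the wild-type mean was higher in old than in young animals, and the log2 difference was -6.004 ± 0.22, or -0.93 ± 0.25 under the other names. The mutant's own fall of lipl-1 was not called under scaling by library size alone (edgeR adjusted p = 0.193), and it turned to 4.10 under the other library names.

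Some genes rose more in the mutants. Within the same limit on level, the 6 largest positive differences were in C15H9.11 (3.89 ± 0.25), oac-14 (1.69 ± 0.21), C53B7.2 (1.54 ± 0.08), T01G5.7 (1.46 ± 0.08), the acyl-CoA synthetase acs-2 (1.38 ± 0.15) and sdz-27 (1.29 ± 0.08). C15H9.11 had 98.4 ± 2.35 CPM in old and 0.578 ± 0.116 CPM in young mutants, against 8.15 ± 0.617 CPM in old and 0.7096 ± 0.308 CPM in young wild-type animals. Under the other names the difference turned to -0.85 ± 0.27, and that of oac-14 to -0.67 ± 0.23. Those of C53B7.2, acs-2 and sdz-27 stayed positive (0.46 ± 0.08, 0.49 ± 0.17 and 0.49 ± 0.07), and T01G5.7 was not called (0.10 ± 0.08, edgeR adjusted p = 0.289). acs-2 had 118 ± 7.08 CPM in old and 17.4 ± 3.90 CPM in young mutants, against 35.3 ± 3.21 CPM in old and 13.6 ± 0.921 CPM in young wild-type animals. irg-1 had a positive difference of 0.92 ± 0.27, which turned to -1.47 ± 0.26 under the other names. The pharynx markers counted 5 higher and 0 lower of 6, median 1.13, and under the other names 0 higher and 2 lower of 6, median -0.36.

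Ribosomal genes differed little. The cytosolic ribosomal list had 10 higher and 4 lower of 79, median 0.01, and rpl-3 had a log2 difference of 0.06 ± 0.06 (edgeR adjusted p = 0.419), with 2189.5 ± 64.8 CPM in old and 6049 ± 237.02 CPM in young mutants, against 2291 ± 54.8 CPM in old and 6610.5 ± 542 CPM in young wild-type animals. Under scaling by library size alone they counted 33 higher and 2 lower, median 0.11, and rpl-3 was called (0.16, edgeR adjusted p = 0.00481). Under the other names the list counted 65 higher and 0 lower of 78, median 0.34, and rpl-3 had 0.37 ± 0.06 (edgeR adjusted p = 5.20e-06). hsp-16.2 had 34.9 ± 2.51 CPM in old and 0.365 ± 0.193 CPM in young mutants, against 45.2 ± 1.38 CPM in old and 0.200 ± 0.135 CPM in young wild-type animals. Its log2 difference was -1.19 ± 0.40 (edgeR adjusted p = 0.0138), and the call was lost without young octr-1 replicate 5 (edgeR adjusted p = 0.0714) and with limma (adjusted p = 0.0584). It was -2.61 ± 0.40 under the other names. The young levels of hsp-16.2, 0.365 and 0.200 CPM, were low in both genotypes, so its difference rests in part on few young reads. mtl-1 (-0.53 ± 0.46, edgeR adjusted p = 0.368) and abf-2 (-0.80 ± 0.43, edgeR adjusted p = 0.122) were not called, although abf-2 was called without young wild-type replicate 3 (-1.18, edgeR adjusted p = 0.0295) and under the other names (-1.30 ± 0.47, edgeR adjusted p = 0.0216). ilys-3 (-1.36 ± 0.33), nhr-114 (-1.39 ± 0.08) and unc-54 (-1.47 ± 0.15) had negative differences, which were -0.45 ± 0.34, -0.66 ± 0.08 and -0.72 ± 0.15 under the other names, where ilys-3 was not called (edgeR adjusted p = 0.287).

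**Figure D4:**
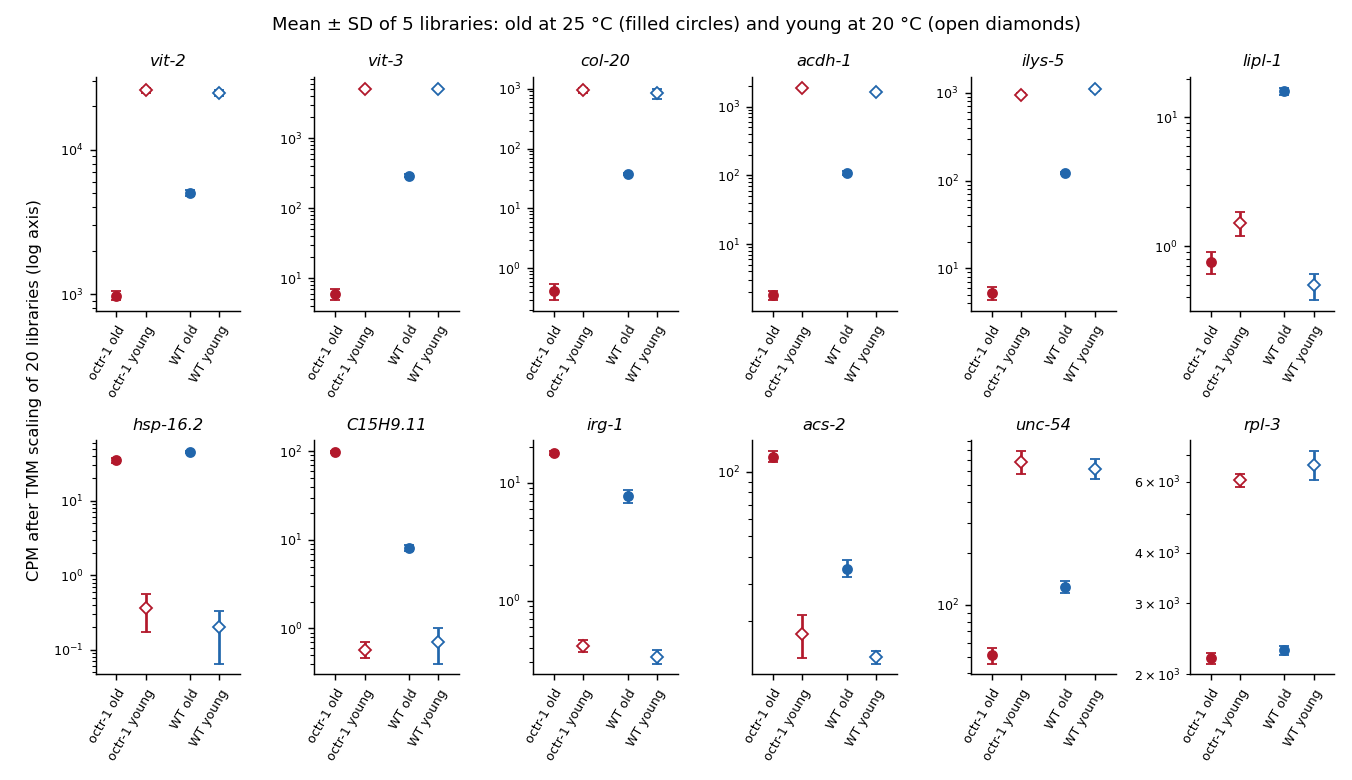
Mean ± SD of 5 libraries for 12 genes in octr-1 mutants (red) and wild-type animals (blue), old at 25 °C (filled circles) and young at 20 °C (open diamonds), in CPM on log axes. vit-2, vit-3, col-20, acdh-1 and ilys-5 lie close together in the young groups and lower in old mutants than in old wild-type animals (under the other library names the difference of ilys-5 turned to 0.64), lipl-1 has its highest level in old wild-type animals, and rpl-3 is similar between genotypes at both ages.

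Old mutants at 25 °C were finally set against old mutants at 20 °C, which were collected on day 14 and not day 9, so temperature and day cannot be told apart. Of 16358 genes tested, 12198 (74.6%) were called with edgeR, 6057 higher (37%) and 6141 lower (37.5%) at 25 °C. At least 2-fold changes were fewer than against young mutants, with 949 higher (5.8%) and 1329 lower (8.12%), but 1643 higher and 873 lower under scaling by library size alone. Rises made up 49.7% of the calls, but 67.2% under scaling by library size alone (8558 higher and 4186 lower). All directions of this comparison turn round under the library names of the table that holds it. Genes given as higher or lower had an edgeR adjusted p of at most 0.00887.

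Among called genes with a mean level over these 10 libraries from 4 log2 CPM upward, the largest rises at 25 °C were in C15H9.11 (4.72 ± 0.06), T28B4.4 (4.24 ± 0.07), Y37H2C.1 (4.12 ± 0.07), C34B7.1 (3.10 ± 0.06), Y47H10A.5 (2.46 ± 0.04) and pqn-31 (2.38 ± 0.06). 4 of them, all but C34B7.1 and pqn-31, were also among the 10 largest rises against young mutants, and the 2 comparisons share the old 25 °C libraries. C15H9.11 had 124.04 ± 3.42 CPM at 25 °C and 4.69 ± 0.705 CPM at 20 °C. The deepest falls were in acdh-1 (-5.47 ± 0.07), lipl-1 (-5.10 ± 0.12), ilys-5 (-5.03 ± 0.07), the acid ceramidase gene asah-1 (-4.91 ± 0.09), F42A10.7 (-4.77 ± 0.08) and vit-3 (-4.70 ± 0.08). lipl-1 had 0.949 ± 0.184 CPM at 25 °C and 32.6 ± 4.06 CPM at 20 °C, and ilys-5 had 6.58 ± 1.12 CPM at 25 °C and 216 ± 10.1 CPM at 20 °C.

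Vitellogenins were lower at 25 °C than at 20 °C, with 0 higher and 6 lower of 6, median -3.14. vit-2 had 1232 ± 85.4 CPM at 25 °C and 4683 ± 317 CPM at 20 °C, and vit-6 differed by -2.27 ± 0.06. Small heat shock proteins were mostly higher, with 8 higher and 2 lower of 10, median 0.97, and hsp-16.2 had 44.0 ± 3.10 CPM at 25 °C and 16.6 ± 1.36 CPM at 20 °C. hsp-70 was higher as well (1.35 ± 0.05). The p38 and CUB-like effectors were mostly lower, with 1 higher and 15 lower of 17, median -2.89, dod-24 differing by -4.53 ± 0.08 and lys-4 by -4.61 ± 0.06. The antibacterial factor gene abf-2 was higher (0.47 ± 0.05) and ilys-3 lower (-0.94 ± 0.04). mtl-1 was higher (0.41 ± 0.11).

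The cytosolic ribosomal list had 3 higher and 65 lower of 79, median -0.36 (17 higher and 48 lower, median -0.13, under scaling by library size alone), and rpl-3 differed by -0.34 ± 0.04. Sperm genes counted 46 higher and 3 lower of 63, median 0.51, of which the msp genes held 17 higher and 1 lower of 26. unc-54 was lower (-0.77 ± 0.07), while the pharynx markers counted 6 higher and 0 lower of 6, median 1.52. octr-1 did not pass the test between the temperatures (0.06 ± 0.16, edgeR adjusted p = 0.727), with 1.09 ± 0.137 CPM at 25 °C and 1.06 ± 0.166 CPM at 20 °C.

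**Figure D5:**
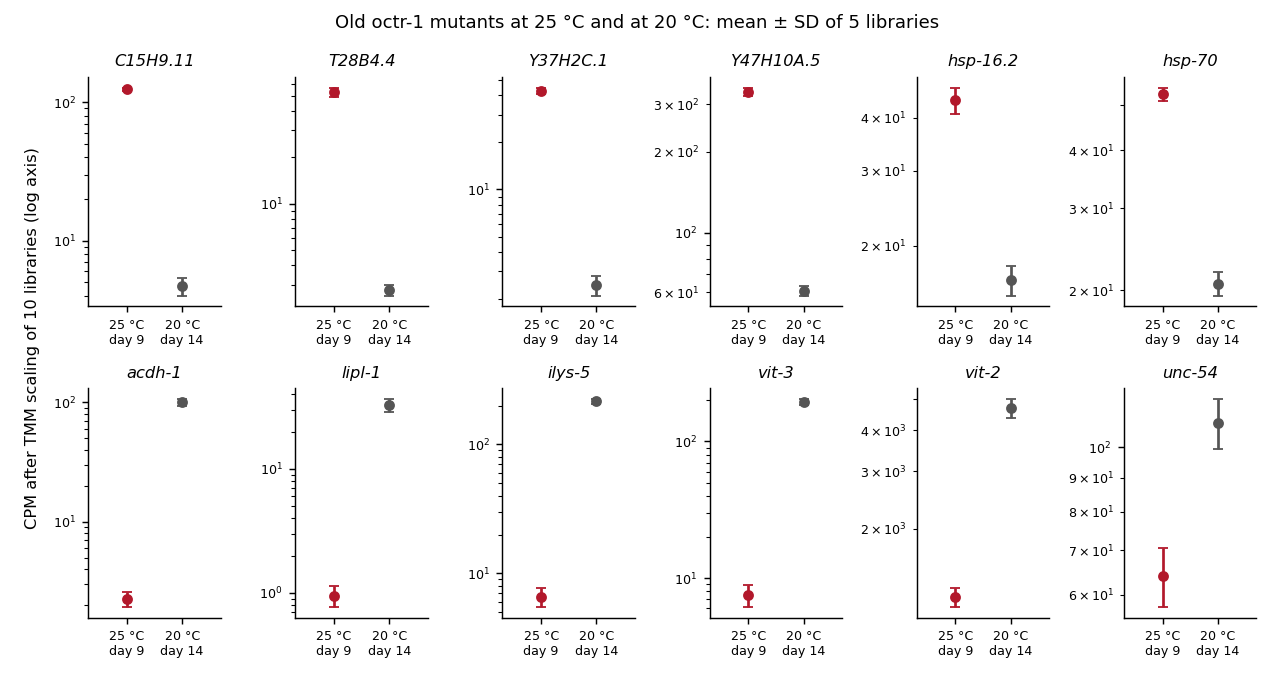
Mean ± SD of 5 libraries for 12 genes in old octr-1 mutants at 25 °C on day 9 (red) and at 20 °C on day 14 (grey), in CPM on log axes. The first 6 genes, led by C15H9.11, are higher at 25 °C, and the last 6, such as lipl-1 and ilys-5, are lower. Under the other library names all 12 differences turn round.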

How the data were processed

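RNA-seq of 40 whole-animal libraries in 8 groups of 5 was deposited as 9 tables of 42048 features, each table holding 2 groups. Per the submitters' processing notes, bcl2fastq, HISAT2 2.2.1, featureCounts, DESeq2 1.31.16 and the genome build ce10 were used. How reads mapping to several places and strand were counted is not given in the sources used here. The deposited signal is read counts that the authors divided by a size factor per library within each table. Whole reads were recovered from it, and 100% of values lay within 0.001 of a whole number. The planned test assumed read counts, so it was run on the recovered reads. A library that occurs in several tables had identical reads in each.

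The 10 mutant libraries were scaled together by TMM and tested with edgeR 4.0.16 (quasi-likelihood, robust, Benjamini-Hochberg adjustment) in R 4.3.3, over features with at least 10 reads in at least 5 libraries. The scripts were tested on simulated data. Alternatives used limma 3.58.1, DESeq2 1.42.0, other scaling, no filter, a replicate block, other library names and each library left out. The fit of the genotype difference under the other library names was chosen after seeing the data. Python 3.11.15, numpy 2.4.6, pandas 2.3.3 and matplotlib 3.10.9 made the tables and figures. Replicates of a group differed by more than sampling noise, with a chi-square per degree of freedom of 2.79 to 9.35 between pairs.

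The members and gene lists were chosen with earlier results of these data known. Named genes were octr-1, the 10 largest rises and 10 deepest falls without overlap between groups and with a mean level from 4 log2 CPM upward, the highest and up to 4 most strongly called members of each list, every member of lists of at most 10, the markers, and the 6 largest differences each way in the other comparisons. Of 215 genes with values in the text, 43 fall outside that rule and were chosen after their values were seen. The chemoreceptor list was made from gene name prefixes. No sequence is printed.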

Additional observations from a re-analysis of the deposited data

Results flagged for a closer look

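octr-1 had 0.748 CPM in young mutant replicate 2, apart from the other young mutants at 0.397 to 0.479 CPM. It was the only such library among 82 groups of 5 values checked, where chance alone gives about 1 in 20.

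The change from young to old at 25 °C differed between octr-1 mutants and wild type by the interaction test for the 25 genes whose called difference is given above. These genes include the 6 largest differences each way named above, picked from the same fit, in which 47.6% of all genes tested differed. The log2 differences, mutant change minus wild-type change, were -0.91 for octr-1, -2.43 for vit-2, -5.60 for vit-3, -2.63 for vit-6, -1.46 for asp-1, -0.52 for pept-1, -1.47 for unc-54, -6.10 for acdh-1, -1.39 for nhr-114 and -6.004 for lipl-1. For collagens they were -6.65 for col-20, -6.19 for col-129, -7.43 for col-139, -6.95 for col-81 and -7.24 for col-93. For immune and stress genes they were -1.36 for ilys-3, -4.36 for ilys-5, 0.92 for irg-1 and -1.19 for hsp-16.2. The positive ones were 3.89 for C15H9.11, 1.54 for C53B7.2, 1.46 for T01G5.7, 1.38 for acs-2, 1.69 for oac-14 and 1.29 for sdz-27. Those of asp-1, ilys-5, irg-1, C15H9.11 and oac-14 had the opposite sign under the other library names, and those of ilys-3 and T01G5.7 were not called there. The call of hsp-16.2 was lost without young octr-1 replicate 5 and with limma.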

How the results depend on the processing

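Old against young mutants gave 13798 calls, and 13226 to 14535 under RLE scaling, library size only, limma, DESeq2, the 8-group fit, the replicate block and the other library names, and 17508 of 27568 features without the filter. With library size as the only scaling 11929 genes were higher, 2606 lower, with 7047 rises and 1009 falls of at least 2-fold. Without the filter 7806 were at least 2-fold higher. In old 25 °C against old 20 °C mutants, library size only gave 1643 rises and 873 falls of at least 2-fold.

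The labels do not say whether replicate numbers pair the libraries, and no pairing was assumed. Same-numbered libraries correlated at -0.216 to 0.272, and 2 of 5 old libraries correlated best with their own number. Correlations among so few libraries cannot exclude pairing. With the replicate block the calls were 13773, 7636 for the genotype difference and 12158 for old 25 °C against old 20 °C.

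Leaving out each library in turn gave 11884 to 13638 calls (6116 to 7267 higher, 5760 to 6378 lower, 2992 to 4447 at least 2-fold higher, 2102 to 2314 at least 2-fold lower). The lowest counts came with an old library left out, since fewer genes can then pass a filter of 5 libraries. For the genotype difference the ranges were 7511 to 7751 calls, 3000 to 3459 positive, 4203 to 4699 negative, and 525 to 652 and 1359 to 1491 at least 2-fold. For old 25 °C against old 20 °C they were 11806 to 11974 calls, 5825 to 5996 higher, 5889 to 6032 lower, and 863 to 1021 and 1261 to 1352 at least 2-fold.

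With library size as the only scaling, log2 fold changes against young mutants turned to 0.28 for tdc-1, 0.26 for ser-6, 0.19 for flp-7, 0.46 for ins-34, 0.028 for sip-1, 0.55 for hsp-43 and 0.013 for hsp-12.3. Under the other library names they turned to -0.35 for myo-2, 0.40 for dod-24, 4.10 for lipl-1, -1.05 for T01G5.7, 0.14 for asah-1, -0.45 for cpz-2, -0.68 for unc-22, -0.84 for myo-1, -0.26 for tni-4, -0.51 for tnt-4, 0.21 for ins-34, -1.27 for hsp-17, -1.17 for hsp-12.2, 0.31 for sip-1, -0.017 for ilys-4, 1.62 for thn-2, -0.28 for lbp-2 and -0.51 for sams-5. Genotype differences turned to 0.44 for asp-1, 0.64 for ilys-5, -1.47 for irg-1, -0.85 for C15H9.11 and -0.67 for oac-14.

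Between the temperatures the other names only turn the signs, to 1.93 for vit-2, 4.70 for vit-3, 2.27 for vit-6, 0.77 for unc-54, 0.94 for ilys-3, 4.61 for lys-4, 5.03 for ilys-5, 4.53 for dod-24, 0.34 for rpl-3, 5.47 for acdh-1, 5.10 for lipl-1, 4.91 for asah-1, 4.77 for F42A10.7, -0.47 for abf-2, -1.40 for hsp-16.2, -1.35 for hsp-70, -0.41 for mtl-1, -4.12 for Y37H2C.1, -4.72 for C15H9.11, -4.24 for T28B4.4, -3.10 for C34B7.1, -2.46 for Y47H10A.5 and -2.38 for pqn-31. Which names are right cannot be told from the tables alone, and the cause of the exchange was not tested. Genes with few reads in the young libraries have the least precise fold changes.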
